A study of Caenorhabditis elegans with 4 samples.

Results

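The diet difference in old adults was read from 2 whole-worm libraries of Caenorhabditis elegans, the nematode laboratory model, collected at day 13 of adulthood: 1 library of worms fed Bacillus subtilis PY79 and 1 library of worms fed Escherichia coli OP50, the usual laboratory food. Both populations were the wild-type strain N2, grown from the first larval stage on their bacterium and washed over mesh during adulthood, and each library is a pool of whole animals from a single population with no replicate. The study names FUDR, which keeps worms from producing offspring, for its aging samples as a whole, and not for these populations in particular. A gene was taken into the comparison when its most-read transcript line had at least 10 reads in either of these libraries, which left 8028 of 17096 genes. The study used these libraries to set changes with age on B. subtilis beside those on OP50, and here the diets are compared within day 13. PY79 and OP50 worms of day 4 of adulthood, again 1 library each, were used only to show where the day 13 difference departs from that of young adults.

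Bacteria are both the food of C. elegans and the microbes that fill its gut as it ages. Worms grind them in the pharynx and digest them in the intestine, whose cells secrete proteases, lysozymes that cut bacterial cell walls, and saposin-like proteins that open membranes, while the epidermis makes its own antimicrobial peptides. The intestine also makes the yolk proteins that oocytes take up, and GATA factors such as ELT-2 drive most of its genes.

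Expression was measured by 3' end sequencing of poly(A) RNA, in which reads gather at the end of each transcript. The chosen lines held 4469802 reads for PY79 and 28552961 reads for OP50 at day 13, so the OP50 library was 6.39 times deeper. Levels are given as CPM, read counts scaled to a common library size after TMM normalization, with TMM factors of 1.31 for PY79 and 0.743 for OP50, and 3 reads, the floor used for genes at 0, correspond to 0.513 CPM in the PY79 library and 0.141 CPM in the OP50 library. With 1 library per group no test of the day 13 difference exists. A gene was called higher or lower on PY79 when its level differed by 2-fold or more and an exact 95% interval, computed from how its reads were divided between the libraries, excluded a ratio of 1. Those intervals hold counting error alone, because each group has 1 library. No molecular identifiers were used and repeated reads can come from the same molecule, so the intervals may be too narrow even for counting error. In whole worms, fewer cells of a type and less RNA per cell cannot be told apart.

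Of the 8028 genes, 1908 were called higher on PY79 (23.8%), 2063 were called lower (25.7%) and 4057 were not called. These shares are the background for every count of called members given below. The median log2 ratio was -0.04, and the middle 50% of genes lay between -1.37 and 0.99. Large differences were more often toward lower values: 98 genes were at least 10-fold higher on PY79 and 231 were at least 10-fold lower. The split depended on how the libraries were scaled. Scaling to total reads multiplies every ratio by 1.76, which moves the median to 0.74 and gives 3264 genes higher and 1068 lower, so that 75.3% of calls are higher in place of 48.0%. All statements below are relative to the TMM scale, and group medians that change sign under total reads are named as such. Of 154 genes named in what follows, 19 were called on the TMM scale and not under total reads, among them vit-2, hsp-1, hsp-90, sod-1 and perm-4, and 3 (ilys-3, nlp-27 and nlp-34) were called only under total reads. When the transcript lines of a gene were summed, lys-8, ftn-2, vha-13 and C14C6.5 were no longer called. Depth also limited the calls. There were 5360 genes with at least 10 reads in both libraries, 2514 with 10 reads on OP50 only and 154 with 10 reads on PY79 only, and of the genes with 10 reads on OP50 only, 1737 were not called. Of the 2063 lower calls 757 had fewer than 10 reads on PY79, and of the 1908 higher calls 154 had fewer than 10 on OP50. Over the 5360 genes with 10 reads in both libraries 1734 were higher and 1306 lower.

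**Figure D1:**
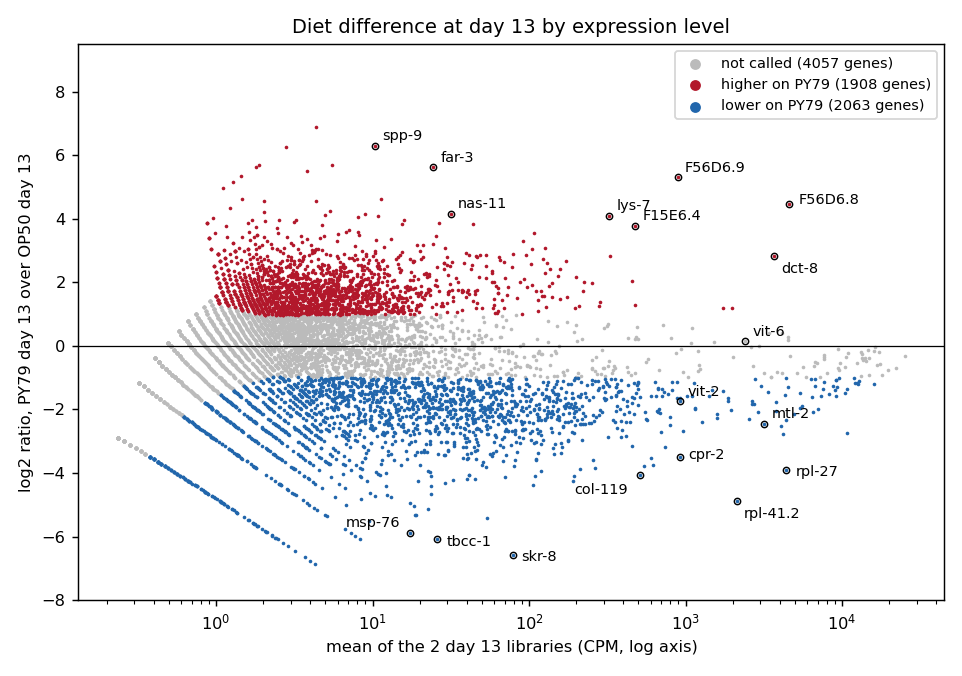
Each point is 1 of 8028 genes, with the mean of the day 13 libraries in CPM on a log horizontal axis and the log2 ratio of PY79 over OP50 on the vertical axis; red genes were called higher (1908), blue genes lower (2063) and grey genes were not called (4057). Genes over 20 CPM lie mostly below the line at 0, while F56D6.8, F56D6.9, dct-8, lys-7 and F15E6.4 stand above it among highly read genes.

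The direction varied with expression level. Among the 307 genes over 200 CPM, 5.21% were higher on PY79 and 61.2% were lower, with a median log2 ratio of -1.22. Among the 3779 genes between 2 and 20 CPM, 33% were higher and 22.8% were lower, with a median of 0.38. It also varied with the annotated transcript length. In the shortest of 5 equal groups, up to 730 bases, 19% were higher and 39.4% lower on PY79, and in the longest group, from 2382 bases, 27.3% were higher and 14.4% lower. The rank correlation of length with the log2 ratio was 0.180 over 7972 genes with a length and 0.248 over the 1168 of them with at least 100 reads in both libraries. These are descriptions across genes of the same pair of libraries, and the part of length or of RNA quality in any result below was not tested.

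Several genes of host defence and digestion were among the 20 genes that stood farthest above equality on PY79. sysm-1, an immune effector gene of the p38 pathway known as T24B8.5, had 51 reads on PY79 and 0 on OP50, at least 61.6-fold higher. spp-9, which encodes a saposin-like protein, had 20.5 CPM on PY79 and 0.189 CPM on OP50, from 120 reads on PY79 and 4 on OP50 (109-fold higher, 41.4 to 406). spp-12 of the same family had 7.52 CPM on PY79 and 0.0943 CPM on OP50 (79.8-fold higher, 20.8 to 679), with only 2 reads behind the OP50 value. All 3 are thus close to absent from the OP50 library and clearly present in the PY79 library. far-3, a gene for a fatty acid and retinol binding protein, had 47.9 CPM on PY79 and 0.896 CPM on OP50 (53.4-fold higher, 33.6 to 90.1), although it overlaps a gene on the other strand. lys-7, a protist-type lysozyme, had 616 CPM on PY79 and 36.0 CPM on OP50 (17.1-fold higher, 15.8 to 18.5) and is measured from 3604 reads on PY79 and 763 on OP50. The C-type lectin gene clec-65 was at 8.38 CPM on PY79 and 0.283 CPM on OP50 (29.6-fold higher).

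The remaining genes of that group were mixed in kind. They included the astacin metalloprotease gene nas-11 (60.01 CPM on PY79 and 3.30 CPM on OP50, 18.2-fold higher), the troponin T gene tnt-3 (20.5 CPM on PY79 and 1.13 CPM on OP50, 18.1-fold higher) and the UDP-glucuronosyltransferase gene ugt-46 (21 reads on PY79 and 0 on OP50, at least 25.4-fold higher). The transcription factor gene atf-7 was at 81.6 CPM on PY79 and 5.71 CPM on OP50 (14.3-fold higher), but it overlaps other genes on both strands. fipr-22, of a family of short secreted peptides, had 64 reads on PY79 and 3 on OP50 (77.3-fold higher, 25.3 to 385). Of these 20 genes, 6 had 0 reads on OP50. At day 4, 8 of the 20 were also higher on PY79, 4 were lower and 8 were not called.

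The 20 genes that stood farthest below equality were also mixed in kind. skr-8, for a Skp1-related protein of ubiquitin ligases, had 1.54 CPM on PY79 and 156 CPM on OP50 (101-fold lower, 53.2 to 221). tbcc-1, for a tubulin folding cofactor, had 0.684 CPM on PY79 and 51.3 CPM on OP50 (74.95-fold lower, 29.2 to 276), and the ribonuclease gene rnst-2 had 0.855 CPM on PY79 and 36.9 CPM on OP50 (43.2-fold lower). Each of these had fewer than 10 reads on PY79 and far more on OP50. The ribosomal protein genes rpl-41.2 (138 CPM on PY79 and 4093 CPM on OP50, 29.7-fold lower, 27.7 to 31.8) and rpl-27 (545 CPM on PY79 and 8241 CPM on OP50, 15.1-fold lower, 14.6 to 15.7) were far more highly read. ufd-1, which acts with the segregase CDC-48 in protein degradation, had 9.57 CPM on PY79 and 201 CPM on OP50 (21.01-fold lower). The DNA replication gene psf-2 was at 1.197 CPM on PY79 and 44.2 CPM on OP50 (36.9-fold lower), the mitochondrial DNA polymerase gene polg-1 at 1.03 CPM on PY79 and 36.0 CPM on OP50 (35.1-fold lower) and the major sperm protein gene msp-76 at 0.513 CPM on PY79 and 34.4 CPM on OP50 (67.0-fold lower). At day 4, 19 of the 20 were also lower on PY79. Of the 20, 8 overlap another annotated gene.

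The only test across libraries was an additive model of day and diet in edgeR, fitted to all 4 libraries, with Benjamini-Hochberg adjustment over 9032 genes. It has 1 residual degree of freedom and tests a diet effect common to both ages, not the day 13 difference. That degree of freedom holds only how a gene's diet difference changed between the days. The spread behind each p was taken wholly from a trend shared by all genes, so a gene's own variation did not enter. With no replicate libraries, the adjusted p given below do not measure variation between worm populations. The words "rose" and "fell" below are used only of genes that passed the model at an adjusted p under 0.05. On PY79, 1334 genes rose (14.8%) and 1538 fell (17%), against 1401 that rose and 484 that fell under total reads. Of the genes called higher at day 13, 1134 rose in this model (59.4%), and of those called lower, 1370 fell (66.4%). The model includes the day 13 libraries, so these shares are no independent support for the calls.

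Protist-type lysozymes were higher on PY79 throughout. All 5 members with enough reads, of 10 lys genes in the table, were called higher, against a background of 23.8%, with a median log2 ratio of 2.98. lys-1 had 19.3 CPM on PY79 and 1.84 CPM on OP50 (10.5-fold higher, 7.24 to 15.5), and lys-2 had 4.62 CPM on PY79 and 0.519 CPM on OP50 (8.90-fold higher, 4.27 to 19.9). lys-4 was at 4.62 CPM on PY79 and 1.46 CPM on OP50 (3.16-fold higher, 1.81 to 5.47) and lys-8 at 13.2 CPM on PY79 and 4.72 CPM on OP50 (2.79-fold higher, 2.05 to 3.80). The 5 genes differed at day 4: lys-7 and lys-1 were 4.66-fold higher and 5.61-fold higher, lys-4 was 46.1-fold higher, and lys-2 (1.41-fold higher) and lys-8 (1.80-fold lower) were not called. In the additive model lys-7 rose by 3.16 on the log2 scale (adjusted p = 8.7e-06) and lys-1 by 2.92 (adjusted p = 9.5e-05), and lys-8 did not pass (log2 0.28, adjusted p = 0.753).

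Invertebrate-type lysozymes, which include enzymes induced by Gram-positive bacteria in this worm, looked different. At day 13 ilys-3 had 3879.6 CPM on PY79 and 2928 CPM on OP50 (1.32-fold higher, 1.305 to 1.35) and ilys-2 had 881 CPM on PY79 and 1532 CPM on OP50 (1.74-fold lower, 1.69 to 1.79), neither past 2-fold. At day 4, ilys-3 had 4446 CPM on PY79 and 39.6 CPM on OP50 and ilys-2 had 5638 CPM on PY79 and 35.2 CPM on OP50. The PY79 level of ilys-3 was thus similar at both ages, whereas the OP50 level was high only in the day 13 library. Of the 5 ilys members only ilys-6 was called, from 22 reads on PY79 and 24 on OP50 (3.32-fold higher, 1.78 to 6.19), and the group median of -0.26 turns to 0.55 when scaled to total reads.

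The other effector families were split. Among the 13 saposin-like genes, 4 were higher and 3 lower, with a median log2 ratio of 0.54 that is -0.09 over the 10 of them with at least 10 reads in both libraries. spp-5, an amoebapore-like protein of the intestine, was at 35.4 CPM on PY79 and 7.26 CPM on OP50 (4.87-fold higher, 3.94 to 6.04) and spp-2 at 7.52 CPM on PY79 and 0.896 CPM on OP50 (8.40-fold higher, 4.80 to 15.2). In the other direction spp-1 was at 67.0 CPM on PY79 and 337 CPM on OP50 (5.03-fold lower, 4.55 to 5.59), and it fell in the additive model (adjusted p = 0.0049). Members of a single family were therefore called in both directions. Of 35 C-type lectin genes, 9 were higher and 10 lower, close to the background in both directions. clec-85 was at 229 CPM on PY79 and 43.1 CPM on OP50 (5.32-fold higher, 4.89 to 5.80) and clec-146 at 46.5 CPM on PY79 and 4.15 CPM on OP50 (11.21-fold higher, 8.78 to 14.4), while clec-63 was at 28.6 CPM on PY79 and 148 CPM on OP50 (5.18-fold lower, 4.43 to 6.09). The median of the lectins, -0.09, is 0.69 under total reads, where 14 were higher and 6 lower. It is 0.84 over the 14 lectins with at least 10 reads in both libraries.

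Genes known from infection responses of the intestine also went both ways. Besides sysm-1, C17H12.8 had 17 reads on PY79 and 1 on OP50 (61.6-fold higher, 9.66 to 2576), and irg-2, an infection response gene, was at 7.18 CPM on PY79 and 1.84 CPM on OP50 (3.90-fold higher, 2.46 to 6.199). mul-1, a mucin-like gene, was at 0.342 CPM on PY79 and 3.58 CPM on OP50 (10.5-fold lower, 2.80 to 88.1). Of the 9 members of this list 4 were higher and 2 lower. Among 4 genes known to respond to Gram-positive bacteria the only call was that of cpr-2, a cathepsin B-like protease, with 148 CPM on PY79 and 1684 CPM on OP50 (11.41-fold lower, 10.7 to 12.2). At day 4 the same gene had 10.002 CPM on PY79 and 0.568 CPM on OP50, and 54 reads on PY79 against 15 on OP50, so its direction differed between the ages. The highest cpr-2 level of the 4 libraries was that of OP50 at day 13.

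Epidermal antimicrobial peptide genes were abundant on both diets at day 13, and few were called. Of 20 members, 2 were called higher and 3 lower, both below the background, and the median log2 ratio of 0.13 is -0.02 with DESeq2 size factors. Under total reads 9 were higher and 1 lower, with a median of 0.95. nlp-34 had 4786 CPM on PY79 and 4172 CPM on OP50 (1.15-fold higher, 1.13 to 1.16) and nlp-27 had 4705 CPM on PY79 and 3560.0 CPM on OP50 (1.32-fold higher, 1.303 to 1.34). At day 4 nlp-34 was at 124 CPM on PY79 and 281 CPM on OP50, lower on both diets than at day 13, and 11 of 17 members were lower on PY79. The called exceptions at day 13 were cnc-1 (28 reads on PY79 and 5 on OP50, 20.3-fold higher, 7.74 to 67.3) and nlp-32 (5.30 CPM on PY79 and 1.18 CPM on OP50, 4.50-fold higher) on the higher side and cnc-10 (6.67 CPM on PY79 and 43.4 CPM on OP50, 6.51-fold lower, 4.73 to 9.22), nlp-30 (21.7 CPM on PY79 and 54.5 CPM on OP50, 2.51-fold lower) and nlp-25 (29.2 CPM on PY79 and 72.1 CPM on OP50, 2.46-fold lower) on the lower side.

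The 3 genes with the most PY79 reads among the 20 farthest above equality came from chromosome IV, and there the direction was the reverse of that at day 4. F56D6.8 and F56D6.9 are 2 of these, and dct-8 is their neighbour in the annotation. F56D6.8 had 8779.9 CPM on PY79 and 399 CPM on OP50 at day 13 (21.99-fold higher, 21.5 to 22.5) and 1210.4 CPM on PY79 and 2437 CPM on OP50 at day 4. F56D6.9 had 1739 CPM on PY79 and 43.9 CPM on OP50 at day 13 (39.6-fold higher, 37.1 to 42.4) and 944 CPM on PY79 and 4285 CPM on OP50 at day 4, and it overlaps another gene on the same strand. dct-8, identified in C. elegans as a gene downstream of the insulin-pathway factor DAF-16, had 6417 CPM on PY79 and 911 CPM on OP50 at day 13 (7.05-fold higher, 6.93 to 7.17) and 663 CPM on PY79 and 2982 CPM on OP50 at day 4. For F56D6.8 and F56D6.9 the OP50 library of day 13 was the lowest of the 4, and for dct-8 it was the PY79 library of day 4. The other, F15E6.4, and 2 more genes of the F15E6 series on that chromosome behaved in the same way. F15E6.4 had 888 CPM on PY79 and 64.4 CPM on OP50 (13.8-fold higher, 13 to 14.7), dct-7 had 274 CPM on PY79 and 119.1 CPM on OP50 (2.30-fold higher, 2.16 to 2.45) and F15E6.10 had 46.3 CPM on PY79 and 14.3 CPM on OP50 (3.24-fold higher, 2.74 to 3.83). All 6 were called lower on PY79 at day 4, from 2.01-fold lower for F56D6.8 to 7.61-fold lower for dct-7. None of the 6 passed the additive model, which does not test such a reversal.

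Not every gene nearby did the same. The 3 neighbours named next were picked after their values were seen. F15E6.3 had 138 CPM on PY79 and 159 CPM on OP50 at day 13 (1.16-fold lower, 1.07 to 1.25) and was lower on PY79 at day 4 (5.26-fold lower). F56D6.13 had 1.03 CPM on PY79 and 7.97 CPM on OP50 (7.77-fold lower), and set-9, for a SET domain protein, had 9.23 CPM on PY79 and 2.50 CPM on OP50 (3.69-fold higher). Other reversals lay elsewhere: col-183, a cuticle collagen gene on the X chromosome, had 109.8 CPM on PY79 and 35.8 CPM on OP50 at day 13 (3.06-fold higher, 2.75 to 3.41) and 30.01 CPM on PY79 and 189 CPM on OP50 at day 4, and spp-5 had 278 CPM on PY79 and 1258 CPM on OP50 at day 4.

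**Figure D2:**
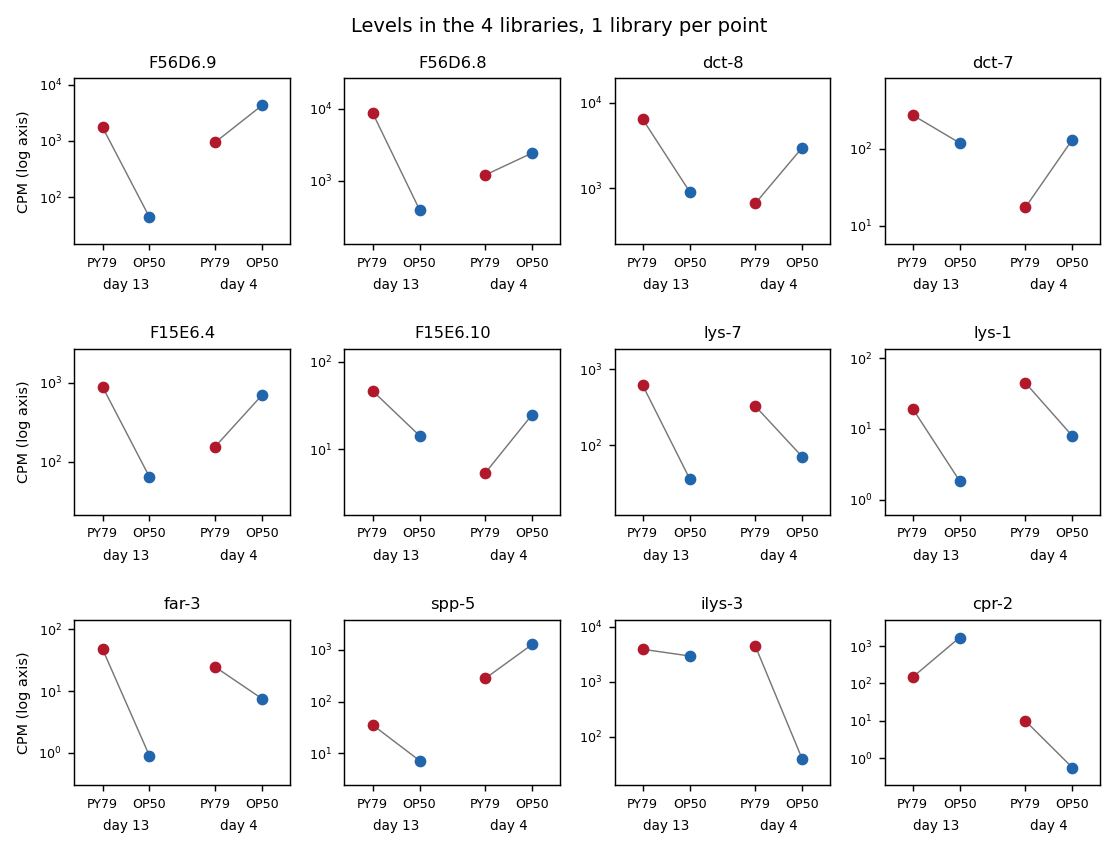
Levels of 12 genes in the 4 libraries in CPM on log axes, red for PY79 and blue for OP50, with day 13 on the left and day 4 on the right of each panel and 1 library per point. F56D6.9, F56D6.8, dct-8, dct-7, F15E6.4, F15E6.10 and spp-5 are higher on PY79 at day 13 and lower at day 4, lys-7, lys-1 and far-3 are higher at both ages, and cpr-2 is lower on PY79 at day 13 and higher at day 4.

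The yolk protein genes, whose products are made in the intestine and shipped to oocytes, did not move as a block. vit-2 had 424 CPM on PY79 and 1416 CPM on OP50 (3.34-fold lower, 3.20 to 3.48), vit-5 had 49.1 CPM on PY79 and 123.4 CPM on OP50 (2.52-fold lower, 2.23 to 2.85) and vit-6 had 2521 CPM on PY79 and 2266 CPM on OP50 (1.11-fold higher, 1.09 to 1.13). vit-3 was the exception, with 65 reads on PY79 and 19 on OP50 (12.4-fold higher, 7.35 to 21.9), but vit-3, vit-4 and vit-5 are near-identical copies and the division of reads among them is uncertain. Of the 6 genes 1 was higher and 3 were lower, with a median log2 ratio of -0.90 at day 13 and -1.26 at day 4. None was lower under total reads. vit-2 fell by 1.52 on the log2 scale in the additive model (adjusted p = 0.0175).

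Intestinal proteases were called in both directions. Of 12 members, 6 were lower and 3 higher, with a median log2 ratio of -1.23, against 25.7% of all genes lower and 23.8% higher. Under total reads 3 were lower and 4 higher, with a median of -0.42. The aspartyl protease gene asp-3 had 22.1 CPM on PY79 and 139.7 CPM on OP50 (6.33-fold lower, 5.31 to 7.61), the cathepsin L gene cpl-1 had 75.4 CPM on PY79 and 405 CPM on OP50 (5.38-fold lower, 4.88 to 5.93) and the cathepsin B-like gene cpr-4 had 75.2 CPM on PY79 and 283 CPM on OP50 (3.77-fold lower, 3.42 to 4.16). A pair of aspartyl protease genes went the other way at both ages, asp-6 with 133 CPM on PY79 and 23.4 CPM on OP50 (5.66-fold higher, 5.05 to 6.35) and asp-2 with 4.62 CPM on PY79 and 0.283 CPM on OP50 from 27 reads on PY79 and 6 on OP50 (16.3-fold higher, 6.599 to 48.3). asp-3 and cpl-1 fell in the additive model (adjusted p = 0.0018 and 0.0013), and asp-2 and asp-6 rose (adjusted p = 4.8e-08 and 0.0052).

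Genes for carriers and enzymes of lipids were found at both ends of the range. lbp-1, for a fatty acid binding protein, had 11.97 CPM on PY79 and 207 CPM on OP50 (17.3-fold lower, 13.6 to 22.2), and far-2, of the fatty acid and retinol binding family, had 109 CPM on PY79 and 681 CPM on OP50 (6.22-fold lower, 5.75 to 6.74). lbp-2 had 152 CPM on PY79 and 35.0 CPM on OP50 (4.34-fold higher, 3.94 to 4.79) and, like far-3, was higher at both ages. The 12 members were divided evenly, with 4 higher and 4 lower, and their median of -0.74 turns to 0.08 under total reads. Of 16 genes of fatty acid oxidation, 5 were higher (31.25%) and 6 lower (37.5%), against 23.8% and 25.7% of all genes. Under total reads 8 were higher and 6 lower. The thiolase gene kat-1 had 2.22 CPM on PY79 and 24.1 CPM on OP50 (10.8-fold lower, 6.28 to 20.5) and daf-22, for the thiolase of peroxisomal chain shortening, had 6.33 CPM on PY79 and 31.7 CPM on OP50 (5.01-fold lower, 3.60 to 7.18). Of the desaturases, fat-5 was at 15.7 CPM on PY79 and 56.2 CPM on OP50 (3.57-fold lower, 2.89 to 4.47) and fat-3 at 6.16 CPM on PY79 and 1.37 CPM on OP50 (4.50-fold higher, 2.68 to 7.61).

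elt-2 itself, the GATA factor of the intestine, had few reads, with 7 reads on PY79 and 35 on OP50 (1.38-fold lower, 0.604 to 3.68), and a difference was not detectable at this depth. At day 4 it was 3.78-fold lower. The other factors of the intestine or of longevity that were examined were mostly not called. daf-16, the FOXO factor of the insulin pathway, had 6.33 CPM on PY79 and 9.81 CPM on OP50 (1.55-fold lower, 1.09 to 2.26), skn-1, the Nrf-like factor, had 12.7 CPM on PY79 and 17.02 CPM on OP50 (1.35-fold lower, 1.05 to 1.75) and hlh-30, the TFEB homologue, had 3.42 CPM on PY79 and 4.999 CPM on OP50 (1.46-fold lower, 0.901 to 2.49). pqm-1, a zinc finger factor of the intestine, was the only 1 of these called, with 14 reads on PY79 and 16 on OP50 (3.17-fold higher, 1.43 to 6.94), and it rose in the additive model (adjusted p = 0.0415). elt-7 had fewer than 10 reads in each library and was not a member, and pha-4 was not called.

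The study sorted genes that depend on elt-2, from other samples, into classes for establishing the intestine, for adult function and for general intestinal use. Of the 21 adult-function genes 8 were higher (38.1%) and 4 lower (19.05%), against 23.8% and 25.7% of all genes, with a median log2 ratio of 0.54. Of the 50 general intestinal genes 17 were higher (34%) and 16 lower (32%). Their median of -0.37 becomes 0.44 under total reads, where 19 were higher and 6 lower. Of the 50 establishment genes 6 were higher (12%) and 17 lower (34%), with a median of -0.84. Under total reads 9 of the establishment genes were higher and 5 lower, with a median of -0.02. Several of these are ribosomal protein genes. lys-1, asp-2 and asp-3 belong to the general class, spp-5 and lys-2 to the establishment class and pals-26 (17.1 CPM on PY79 and 0.896 CPM on OP50, 19.1-fold higher) to the adult class. The defining markers of the intestine gave a summed level of 14.9 CPM on PY79 and 11.98 CPM on OP50. Of the 8 markers, 5 were members and none was called, and pept-1, for a peptide transporter, was at 0 on PY79.

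mtl-2, a metallothionein gene of the intestine, had 978 CPM on PY79 and 5362 CPM on OP50 (5.48-fold lower, 5.34 to 5.63). Its relative mtl-1 had 1766 CPM on PY79 and 2230.5 CPM on OP50 (1.26-fold lower, 1.24 to 1.29). The ferritin genes differed in direction, ftn-1 with 12.1 CPM on PY79 and 3.87 CPM on OP50 (3.14-fold higher, 2.25 to 4.37) and ftn-2 with 25.99 CPM on PY79 and 53.1 CPM on OP50 (2.04-fold lower, 1.72 to 2.44). Among targets activated by DAF-16, dod-6 was at 51.8 CPM on PY79 and 6.04 CPM on OP50 (8.58-fold higher, 6.96 to 10.6), dao-3 at 1.54 CPM on PY79 and 11.6 CPM on OP50 (7.51-fold lower, 3.89 to 16.6) and icl-1, the glyoxylate cycle enzyme, at 29.4 CPM on PY79 and 85.4 CPM on OP50 (2.904-fold lower, 2.48 to 3.42). That list held 4 higher (40%) and 2 lower (20%) of 10 members, against 23.8% and 25.7% of all genes. With DESeq2 size factors 3 were higher and 4 lower, and under total reads 4 were higher and 1 lower. The median of the list, -0.51, is 0.31 under total reads.

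Cytochrome P450 and transthyretin-like genes were more often higher than the background. Of 11 cytochrome P450 genes, 6 were higher and none was lower, with a median log2 ratio of 1.06, among them cyp-31A2 (5.64 CPM on PY79 and 1.41 CPM on OP50, 3.99-fold higher, 2.36 to 6.77) and cyp-34A9 (18 reads on PY79 and 12 on OP50, 5.44-fold higher, 2.48 to 12.4). Of 32 transthyretin-like genes, a nematode family of small secreted proteins, 18 were higher (56.2%, against 23.8% of all genes) and 2 lower, with a median of 1.64 at day 13 and 0.84 at day 4. ttr-26 had 29.8 CPM on PY79 and 1.84 CPM on OP50 (16.18-fold higher, 11.38 to 23.5) and ttr-18 had 15.2 CPM on PY79 and 1.84 CPM on OP50 (8.27-fold higher, 5.62 to 12.4), while ttr-16 had 401 CPM on PY79 and 1017 CPM on OP50 (2.54-fold lower, 2.43 to 2.65). In the additive model 14 of 35 transthyretin-like genes rose and 2 fell. Glutathione transferases, which conjugate toxins, were divided, with gst-20 at 1.37 CPM on PY79 and 23.2 CPM on OP50 (16.9-fold lower, 8.52 to 39.4) and gstk-2 at 16.07 CPM on PY79 and 2.12 CPM on OP50 (7.57-fold higher, 5.25 to 11.1).

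Ribosomal protein genes were called in 1 direction only, lower on PY79. Of the 49 large-subunit ribosomal protein genes 28 were lower (57.1%, against 25.7% of all genes) and none was higher, with a median log2 ratio of -1.09. Of the 31 small-subunit genes 15 were lower (48.4%) and none was higher, with a median of -0.98. Among all 307 genes over 200 CPM, which include the ribosomal protein genes named here, 61.2% were lower and 5.21% higher. The share of lower members in each subunit was thus not above that of highly read genes. The share of all chosen reads held by the large-subunit genes was 31.2% on PY79 and 34.3% on OP50, and that of the small-subunit genes 32.4% on PY79 and 30.2% on OP50. Under total reads 10 large-subunit and 6 small-subunit genes were lower and none was higher, and the medians were -0.27 and -0.16. At day 4 the medians were -0.40 for the large and 0.09 for the small subunit. The size of the difference varied widely within the ribosome. rps-25 had 22580.0 CPM on PY79 and 27885 CPM on OP50 (1.24-fold lower, 1.23 to 1.24), whereas rps-23 had 2798 CPM on PY79 and 18525 CPM on OP50 (6.62-fold lower, 6.52 to 6.73) and rps-8 had 73.5 CPM on PY79 and 1014 CPM on OP50 (13.8-fold lower, 12.5 to 15.2). Some of these genes have near-identical copies, and their median annotated length of 514 bases falls in the shortest length group above.

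Elongation factor genes called were also lower. eef-1A.1, which brings aminoacyl-tRNA to the ribosome, had 1082 CPM on PY79 and 7354 CPM on OP50 (6.798-fold lower, 6.63 to 6.97), eef-1G had 553 CPM on PY79 and 2640.5 CPM on OP50 (4.78-fold lower, 4.61 to 4.95) and eef-2, which drives translocation, had 3959 CPM on PY79 and 7878 CPM on OP50 (1.99-fold lower, 1.96 to 2.02). Of the 6 genes 4 were lower (66.7%), with a median log2 ratio of -2.37 at day 13 and -1.65 at day 4. The 3 genes named are over 200 CPM, where 61.2% of all genes were lower. eef-1A.1 fell by 2.56 on the log2 scale in the additive model (adjusted p = 6.9e-05), rpl-27 fell by 3.84 (adjusted p = 9.1e-09) and rps-23 by 2.23 (adjusted p = 4.3e-04). Of the 12 genes with the highest CPM in each library, 11 encode ribosomal proteins on each diet and 7 are shared. The 12 genes of each library held 23.6% of the chosen reads on PY79 and 19.1% on OP50.

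**Figure D3:**
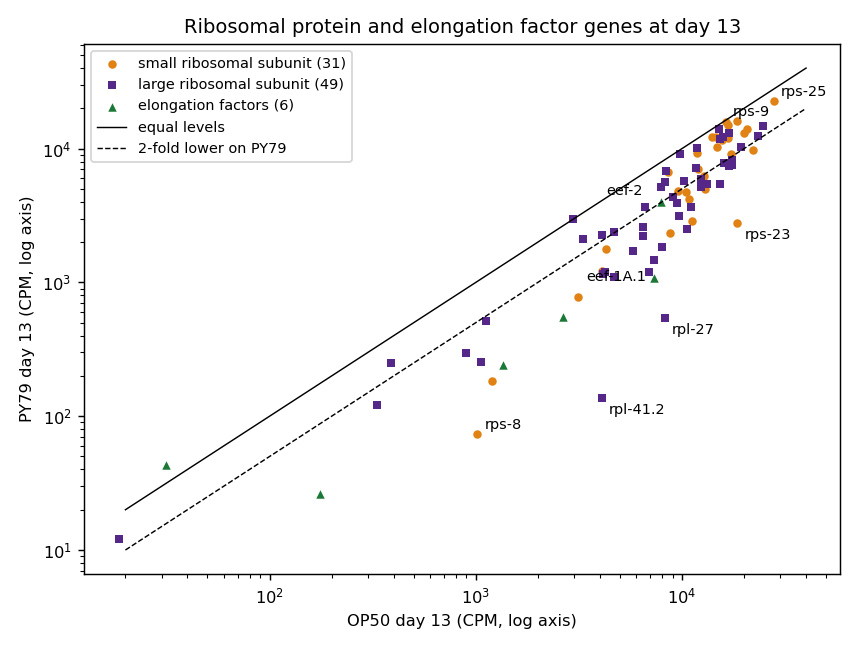
Level on PY79 at day 13 against level on OP50 at day 13, both in CPM on log axes, for 31 small-subunit and 49 large-subunit ribosomal protein genes and 6 elongation factor genes. The solid line marks equal levels and the dashed line a 2-fold lower level on PY79; rps-25 lies just under the solid line, while rps-23, rpl-27, rpl-41.2 and rps-8 lie far below the dashed line.

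Subunits of the mitochondrial respiratory chain encoded in the nucleus were often lower. Of 69 members 28 were lower (40.6%, against 25.7% of all genes) and 8 higher (11.6%, against 23.8%). Their median log2 ratio of -0.71 becomes 0.11 under total reads, where 22 were lower and 17 higher. The complex I genes ndua-12 (6.497 CPM on PY79 and 74.9 CPM on OP50, 11.5-fold lower, 8.37 to 16.36) and ndub-11 (34.4 CPM on PY79 and 286 CPM on OP50, 8.31-fold lower, 7.22 to 9.61) were among the lowest, and the cytochrome c oxidase genes cox-5A (427 CPM on PY79 and 1330.3 CPM on OP50, 3.11-fold lower, 2.99 to 3.24) and cox-4 (698 CPM on PY79 and 1235 CPM on OP50, 1.77-fold lower, 1.71 to 1.83) among the most read. In the additive model 26 subunits fell and 9 rose, of 69 tested. Of the 18 members of the vacuolar proton pump, which acidifies lysosomes, 6 were higher (33.3%, against 23.8% of all genes) and 1 lower, with a median of 0.66. vha-17 had 19.8 CPM on PY79 and 4.76 CPM on OP50 (4.16-fold higher, 3.16 to 5.49), vha-18 had 5.47 CPM on PY79 and 1.08 CPM on OP50 (5.04-fold higher, 2.86 to 9.03) and vha-13 had 16.6 CPM on PY79 and 39.8 CPM on OP50 (2.403-fold lower, 1.95 to 2.996).

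Glycolysis genes were called in both directions. Of 17 genes 7 were higher and 5 lower. The aldolase gene aldo-1 had 14.5 CPM on PY79 and 64.3 CPM on OP50 (4.43-fold lower, 3.55 to 5.58), while the triosephosphate isomerase gene tpi-1 had 11.3 CPM on PY79 and 2.41 CPM on OP50 (4.69-fold higher, 3.21 to 6.9). Of the glyceraldehyde-3-phosphate dehydrogenase genes gpd-1 had 25.6 CPM on PY79 and 91.0 CPM on OP50 (3.55-fold lower, 3.004 to 4.22) and gpd-4 had 8.04 CPM on PY79 and 38.3 CPM on OP50 (4.77-fold lower, 3.55 to 6.54), but these are close copies. Of 25 genes of the citric acid cycle, the glyoxylate cycle and gluconeogenesis 4 were higher (16%) and 8 lower (32%), against 23.8% and 25.7% of all genes. Under total reads 8 were higher and 3 lower. The citric acid cycle gene fum-1, for fumarase, had 42.7 CPM on PY79 and 212 CPM on OP50 (4.95-fold lower, 4.36 to 5.65). An isocitrate dehydrogenase gene, idh-1, had 22.6 CPM on PY79 and 6.22 CPM on OP50 (3.63-fold higher, 2.83 to 4.65). Of 32 proteasome subunits 4 were higher and 8 lower, against 15 higher and 4 lower under total reads, and pas-7, an alpha subunit of the core, had 9.06 CPM on PY79 and 73.4 CPM on OP50 (8.10-fold lower, 6.16 to 10.9). In 1-carbon metabolism cth-2, for cystathionine gamma-lyase, was at 7.86 CPM on PY79 and 1.13 CPM on OP50 (6.95-fold higher, 4.15 to 11.903) and rose in the additive model (adjusted p = 2.3e-05).

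Chaperone genes were called in both directions. In the cytosol hsp-90 had 2846 CPM on PY79 and 7906 CPM on OP50 (2.78-fold lower, 2.73 to 2.82) and the constitutive Hsp70 gene hsp-1 had 863 CPM on PY79 and 2890.3 CPM on OP50 (3.35-fold lower, 3.26 to 3.45), while the small heat shock protein gene hsp-43 had 34.5 CPM on PY79 and 3.77 CPM on OP50 (9.15-fold higher, 7.03 to 12.01). sip-1, a small heat shock protein of embryos, was at 17050.0 CPM on PY79 and 27365 CPM on OP50 (1.605-fold lower, 1.59 to 1.62), and it overlaps a gene on the other strand. In the endoplasmic reticulum crt-1, for calreticulin, had 467 CPM on PY79 and 1815 CPM on OP50 (3.89-fold lower, 3.74 to 4.04) and cnx-1, for calnexin, had 41.9 CPM on PY79 and 209 CPM on OP50 (4.996-fold lower, 4.39 to 5.71). The mitochondrial chaperonin gene hsp-60 was higher, at 34.9 CPM on PY79 and 11.5 CPM on OP50 (3.03-fold higher, 2.50 to 3.67). Thus 6 of 13 heat shock genes were higher (46.2%) and 2 lower (15.4%), and 6 of 13 organelle chaperones were lower (46.2%) and 3 higher (23.1%). Of all genes 23.8% were higher and 25.7% lower. Under total reads 8 heat shock genes were higher and none was lower, and 3 organelle chaperones were lower and 5 higher.

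Antioxidant enzymes showed a similar division. The cytosolic superoxide dismutase gene sod-1 had 114 CPM on PY79 and 367 CPM on OP50 (3.23-fold lower, 2.99 to 3.503), the peroxiredoxin gene prdx-2 had 258 CPM on PY79 and 1117 CPM on OP50 (4.33-fold lower, 4.11 to 4.57) and prdx-6 had 13.3 CPM on PY79 and 80.2 CPM on OP50 (6.01-fold lower, 4.79 to 7.64). Of the 14 members 6 were lower (42.9%) and 4 higher (28.6%), against 25.7% and 23.8% of all genes. The median of -0.39 is 0.39 under total reads, where 4 were lower and 6 higher.

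Histone and sperm genes were among the groups with the largest share of lower members. The libraries were made from poly(A) RNA, and the part of poly(A) selection in the histone counts was not tested. Of 26 core histone genes 24 were lower and none was higher, with a median log2 ratio of -2.49, and 18 were lower under total reads. his-41, which overlaps another gene on the same strand, had 21.4 CPM on PY79 and 363 CPM on OP50 (16.997-fold lower, 14.2 to 20.4), and the H3.3 genes his-72 and his-71 had 92.8 CPM on PY79 and 817 CPM on OP50 (8.80-fold lower, 8.08 to 9.60) and 5.64 CPM on PY79 and 54.9 CPM on OP50 (9.73-fold lower, 6.89 to 14.2). Of 26 major sperm protein genes, the cytoskeletal proteins of crawling sperm, 21 were lower and none was higher, with a median of -2.04 at day 13 and -1.04 at day 4. msp-45 had 21.5 CPM on PY79 and 81.1 CPM on OP50 (3.76-fold lower, 3.14 to 4.55) and msp-142 had 16.8 CPM on PY79 and 68.5 CPM on OP50 (4.09-fold lower, 3.33 to 5.07). Of 33 other sperm genes 21 were lower and 3 higher, with nspd-1 at 63.6 CPM on PY79 and 196 CPM on OP50 (3.08-fold lower, 2.77 to 3.43) and the sperm chromatin gene spch-3 at 72.7 CPM on PY79 and 185 CPM on OP50 (2.55-fold lower, 2.30 to 2.82). Many of these members had 10 reads in a single library. Over genes with at least 10 reads in both libraries the medians were -2.12 for 16 core histone genes, -1.68 for 15 major sperm protein genes and -1.57 for 16 other sperm genes. The copies of histone and major sperm protein genes are nearly identical, so counts of single genes are uncertain. Of 36 sperm markers 8 were at 0 on PY79 and 3 on OP50. Their summed level was 361 CPM on PY79 and 982 CPM on OP50 at day 13, against 59.8 CPM on PY79 and 94.7 CPM on OP50 at day 4, so that sperm transcripts were more abundant in both old libraries.

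Oocyte and germline genes were divided. perm-4 and perm-2, which encode eggshell proteins, had 6101 CPM on PY79 and 15491 CPM on OP50 (2.54-fold lower, 2.51 to 2.57) and 1490.2 CPM on PY79 and 6102 CPM on OP50 (4.10-fold lower, 4.01 to 4.19). skr-7, a close relative of skr-8 with which it may share reads, had 85.5 CPM on PY79 and 1159 CPM on OP50 (13.6-fold lower, 12.4 to 14.8). The yolk receptor gene rme-2 had 61.9 CPM on PY79 and 18.9 CPM on OP50 (3.28-fold higher, 2.84 to 3.79), egg-1, needed for fertilization, had 28.04 CPM on PY79 and 6.65 CPM on OP50 (4.22-fold higher, 3.35 to 5.32) and the egg activation gene egg-3 had 14.02 CPM on PY79 and 1.51 CPM on OP50 (9.29-fold higher, 6.11 to 14.5), the last overlapping a gene on the other strand. Of 22 members 6 were higher and 6 lower, and the 10 markers of oocytes and eggshell summed to 8173 CPM on PY79 and 22640 CPM on OP50. Most of that sum is perm-4 and perm-2, and over the 10 markers 3 were higher and 3 lower, with a median log2 ratio of 0.85. Under total reads 13 members of the full list were higher and 2 lower. In the germline list 9 of 20 were lower and 2 higher, although the median log2 ratio was 0.10 and, under total reads, 9 were higher and 4 lower. The P granule genes glh-1 and pgl-1 had 28.4 CPM on PY79 and 182 CPM on OP50 (6.397-fold lower, 5.48 to 7.52) and 166 CPM on PY79 and 448 CPM on OP50 (2.71-fold lower, 2.53 to 2.89), the Y-box gene cey-2 had 101 CPM on PY79 and 458 CPM on OP50 (4.53-fold lower, 4.17 to 4.94), and mex-3, for a KH domain RNA-binding protein, had 96.9 CPM on PY79 and 18.96 CPM on OP50 (5.11-fold higher, 4.49 to 5.83). The summed germline markers were at 353 CPM on PY79 and 882 CPM on OP50, with 1 of 7 higher and 4 lower. None of them was at 0 in either library, and their part in the histone and sperm differences was not tested.

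Muscle, cuticle and neuronal genes mostly stayed near the background. Of 17 body muscle genes 4 were higher and 2 lower, and the median of -0.18 is 0.61 under total reads. The 8 body muscle markers, none at 0, summed to 155 CPM on PY79 and 284 CPM on OP50. A large part of the OP50 sum is pat-10, given next, and of the 8 markers 1 was higher and 1 lower. The troponin C gene pat-10 had 13.5 CPM on PY79 and 121.95 CPM on OP50 (9.03-fold lower, 7.22 to 11.44), the troponin I gene tni-1 had 5.64 CPM on PY79 and 0.943 CPM on OP50 (5.98-fold higher, 3.33 to 11.001) and the paramyosin gene unc-15 had 5.81 CPM on PY79 and 1.27 CPM on OP50 (4.57-fold higher, 2.67 to 7.87). Of 92 cuticle collagen genes 13 were higher and 25 lower, with a median of -0.74 that is 0.03 under total reads, where 22 were higher and 5 lower. Over the 47 collagen genes with at least 10 reads in both libraries the median was -0.25. The collagen genes with the most reads were col-106 (2773 CPM on PY79 and 1208 CPM on OP50, 2.29-fold higher, 2.25 to 2.34) and col-184 (2408 CPM on PY79 and 1048 CPM on OP50, 2.30-fold higher, 2.25 to 2.35), which were higher. Another was col-119 (56.8 CPM on PY79 and 959.8 CPM on OP50, 16.9-fold lower, 15.2 to 18.9), which was lower and overlaps a gene on the other strand. The summed hypodermal markers, mostly col-19 (83.3 CPM on PY79 and 316 CPM on OP50, 3.80-fold lower), were at 84.3 CPM on PY79 and 318 CPM on OP50. Neuronal markers summed to 37.8 CPM on PY79 and 63.2 CPM on OP50, with 1 of 5 members called in each direction.

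Peptide genes of the insulin and FMRFamide families had few reads. Of 14 insulin-like peptide genes 7 were lower and 1 higher, with a median log2 ratio of -1.43 at day 13 and -1.44 at day 4. ins-34 had 0 reads on PY79 and 105 on OP50, at least 9.65-fold lower, and ins-11 had 3.76 CPM on PY79 and 21.4 CPM on OP50 (5.68-fold lower, 3.71 to 9.15). ins-7, an insulin-like agonist of the intestine and nervous system, was the member called higher, with 33 reads on PY79 and 35 on OP50 (3.42-fold higher, 2.06 to 5.66). Of 11 FMRFamide-like genes 3 were lower (27.3%, near the 25.7% of all genes) and none was higher. flp-15 had 6.84 CPM on PY79 and 32.3 CPM on OP50 (4.72-fold lower, 3.43 to 6.66).

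**Figure D4:**
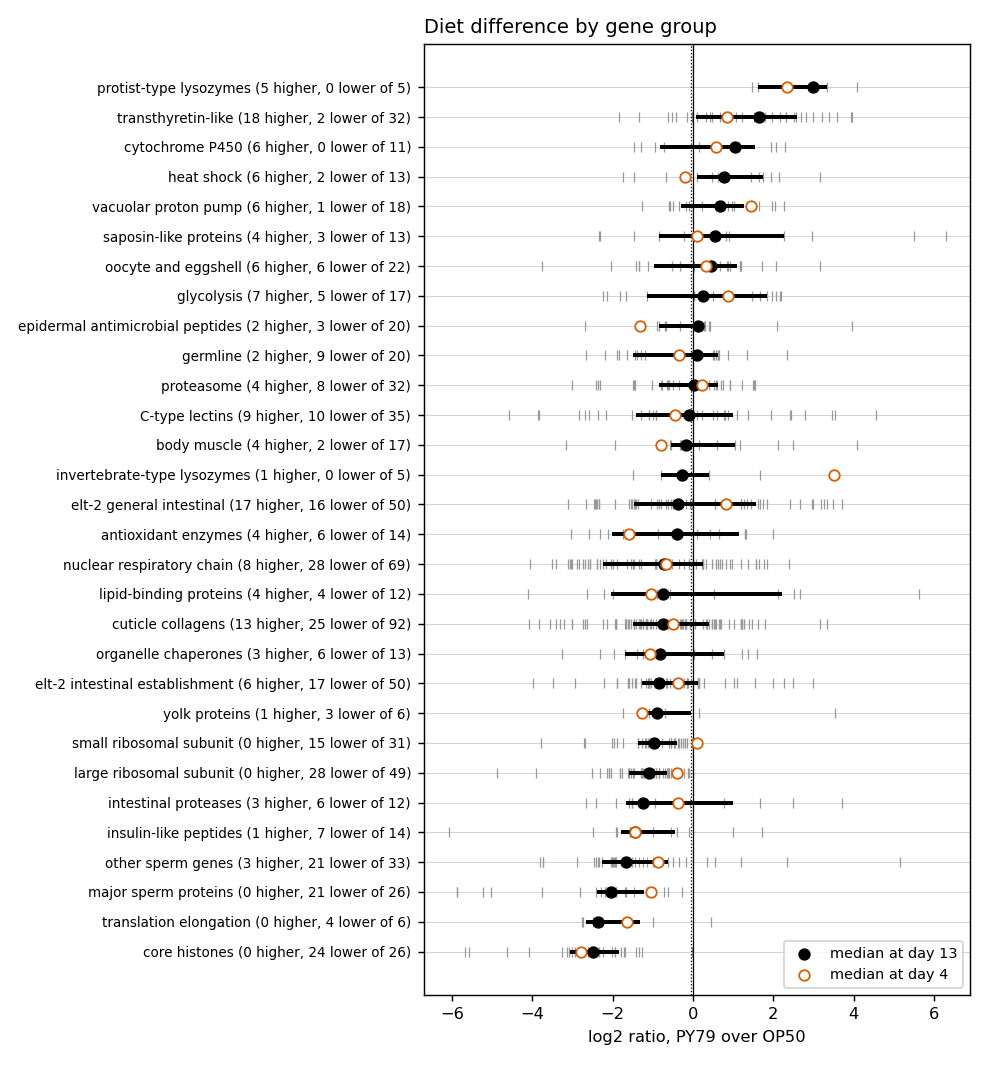
Log2 ratio of PY79 over OP50 for 30 gene groups, ordered by their median at day 13. Filled points are day 13 medians, bars the middle 50% of members, grey ticks single genes and open points day 4 medians, the dotted line is the median of all 8028 genes, and the labels give the members called in each direction. Protist-type lysozymes lie highest and core histones lowest, and the 2 days lie far apart for invertebrate-type lysozymes.

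The day 13 difference shared much with that of young adults, measured in the 2 day 4 libraries. The study describes a synchronized population cultured on either bacterium and sampled at both days, so the ages of a diet may share a culture. The PY79 library was also the shallower at day 4, with 4838114 reads against 28650595 for OP50. Diet cannot be told apart from culture or depth at either age, so the overlap below is no independent support. At day 4, 25.9% of 8410 genes were higher and 26.1% lower on PY79. Over the 7406 genes with enough reads at both days, 1205 were higher at both and 1360 lower at both, which is 66.6% of the genes higher at day 13 and 60.2% of those higher at day 4, and 68.8% of the genes lower at day 13 and 67.3% of those lower at day 4. The ratios of the ages correlated across genes with Pearson's r of 0.718 and Spearman's rho of 0.737, as a description only, since genes of a library share its depth and scaling. Opposite calls were made for 90 genes, 75 of them higher at day 13 and lower at day 4. The reverse direction included C14C6.5, with 62.9 CPM on PY79 and 129.7 CPM on OP50 at day 13 (2.06-fold lower, 1.85 to 2.30) and 429 CPM on PY79 and 209 CPM on OP50 at day 4, and the pseudogene Y73B3A.18, with 21.5 CPM on PY79 and 48.8 CPM on OP50 (2.26-fold lower, 1.88 to 2.75) at day 13 and 44.3 CPM on PY79 and 18.1 CPM on OP50 at day 4. Whether the diet difference changed with age cannot be tested with 1 library per group.

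**Figure D5:**
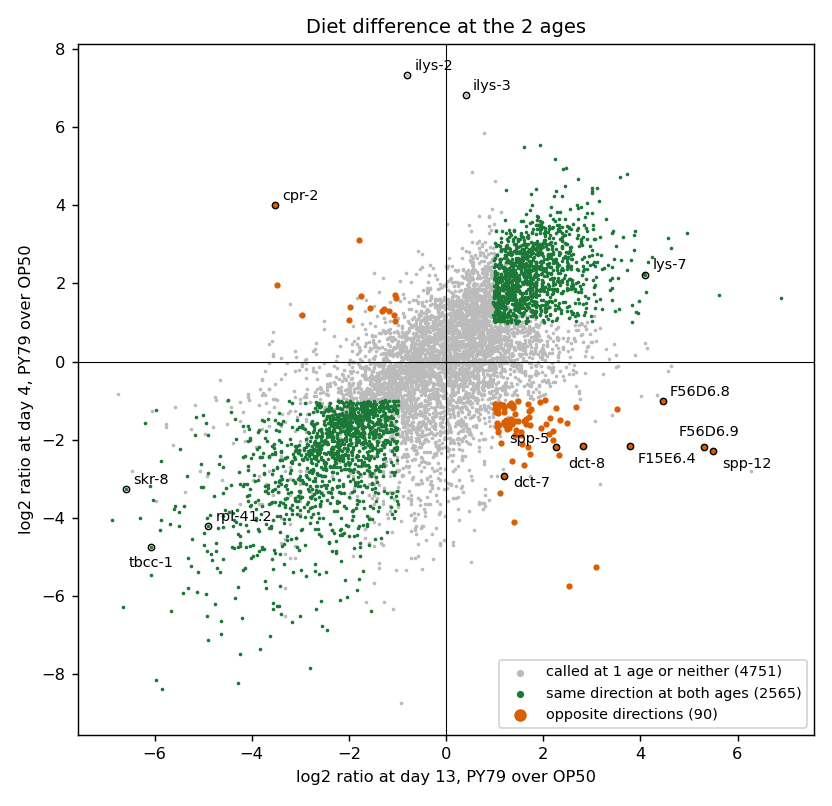
Log2 ratio of PY79 over OP50 at day 13 on the horizontal axis and at day 4 on the vertical axis for 7406 genes; green genes were called in the same direction at both ages (2565), orange genes in opposite directions (90) and grey genes at 1 age or neither (4751). Most calls lie along the diagonal, and the named orange genes at the lower right are higher on PY79 at day 13 and lower at day 4.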

How the data were processed

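Poly(A) RNA of whole N2 worms was sequenced from the 3' end in 4 libraries, 1 for each diet (PY79 or OP50) at day 4 and day 13. The file that the authors deposited holds raw counts of reads for annotated transcripts, not normalized. The submitters' processing notes name Bowtie 0.12.7, and no source used here gives the genome build, the annotation release, how reads were counted or whether strand was used, so coordinates are left out. The 24775 transcript lines include 2 that name no gene and hold 0 reads.

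For each of 17096 genes the line with the largest sum of reads over all libraries stood for the gene, and it was below another line in a day 13 library for 116 genes. Symbols, biotypes, lengths and overlaps came from Ensembl release 115 for 16760 genes and may differ from the annotation used for counting. Library sizes were scaled by TMM (edgeR 4.0.16). Ratios carry exact Clopper-Pearson 95% intervals, log2 ratios a prior count of 1, and a gene at 0 reads is set against a floor of 3 reads per library. The additive model was fitted with edgeR's quasi-likelihood test, with DESeq2 1.42.0 as an alternative, in R 4.3.3. Other steps used Python 3.11.15 with scipy 1.17.1, and the interval and the model were tested on simulated data.

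Named genes are the 20 per direction whose interval bound lies farthest from 1, up to 5 called members by the same bound and the 2 most read members of each gene list, the 12 genes with the highest CPM per library, up to 8 per direction with opposite calls at the 2 ages, and 7 transcription factors of the intestine or of longevity. Members and lists were chosen with earlier results of these data known. Of the 349 genes so named 129 overlap another annotated gene.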

Additional observations from a re-analysis of the deposited data

Results flagged for a closer look

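Among the genes named above, 13 had opposite calls at day 13 and day 4. The difference between the ages was not tested, since each group has 1 library. At day 13 the ratio of PY79 over OP50 was 39.6 for F56D6.9, 21.99 for F56D6.8, 13.8 for F15E6.4, 7.05 for dct-8, 4.87 for spp-5, 3.24 for F15E6.10, 3.06 for col-183 and 2.30 for dct-7, and each of these was lower on PY79 at day 4. For the pseudogene Y73B3A.18, which overlaps another gene on the same strand, it was 0.442, for C14C6.5 0.485 and for cpr-2 0.0876, and all 3 were higher on PY79 at day 4. The other 2 genes were higher on PY79 at day 13 and lower at day 4 and rest on few reads. The ratio of spp-12 was 79.8 from 44 reads on PY79 and 2 on OP50, with a counting interval of 20.8 to 679, and that of vit-3, a yolk gene with near-identical copies, was 12.4 from 65 reads on PY79 and 19 on OP50. F56D6.8, F56D6.9, F15E6.4, dct-8, dct-7 and F15E6.10 lie on chromosome IV.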

How the results depend on the processing

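No call at day 13 turned round with summed transcript lines or with thinned OP50 reads. The other settings could not turn a call round. The scalings multiply every ratio by a common factor (1.76 for total reads, 0.896 for DESeq2), and read minimum and fold threshold leave ratios unchanged. Scaling to total reads gave 3264 genes higher and 1068 lower, DESeq2 size factors gave a share of 41.5% of calls higher, and OP50 reads thinned to the PY79 total gave 46.8%, against 48.0%. A fold threshold of 4 left 1774 genes, 639 higher and 1135 lower, with genes at 0 reads counted as past it. Under total reads 19 named genes were no longer called, which were C14C6.5, Y73B3A.18, cox-5A, ftn-2, hsp-1, hsp-90, icl-1, nlp-25, nlp-30, nspd-1, perm-4, pgl-1, sod-1, spch-3, ttr-16, vha-13, vit-2, vit-4 and vit-5. With DESeq2 size factors eef-2 was called as well. With 10 reads in both libraries 1306 genes were lower. Of 60 lists with members, 34 had a median below 0, against 15 under total reads. The 16 lists with a median of 2-fold or more could not change sign under either other scaling. The common factors, 1.76 and 0.896, move ratios by less than 2-fold. These 16 lists kept their sign under both other prior counts, and 14 of them with 10 reads in both libraries. Of the genes higher at day 13, 62.9% were also higher at day 4 under total reads and 64.1% with thinned OP50 libraries, and of the lower genes 77.6% and 74.6% were also lower. The additive model called 2872 genes. DESeq2's Wald test gave 1780, of which 504 rose, total reads gave 1885, of which 484 fell, and 10 reads in every library gave 916 that fell. Only 1 library per group limits every comparison, and the PY79 library limits the precision of genes with few reads. No paired analysis was possible because every group has the single replicate number 1, which marks no pair beyond the day itself. The additive model already compares the diets within each day.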
